A study of Mus musculus with 6 samples.

Results

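Genes of the primary cilium and of the Hedgehog pathway were followed in cultured mouse chondrocytes, the cells of cartilage, with and without the microRNA gene Mir34a. They were chosen by symbol alone: a fixed pattern for subunits of intraflagellar transport, the BBSome, the transition zone, ciliary motors and GTPases, and Hedgehog receptors, transducers and Gli factors, without Invs. The pattern matched 70 gene symbols of the GENCODE M21 annotation, and 37 of these had a row among the 10189 genes of the deposited table. The 33 without a row included Ptch1, Gli2, Hhip, Ihh, Gpr161, Kif7, Ift88 and Ift27.

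Total RNA was sequenced from 3 samples lacking both copies of Mir34a (global knockout, KO, allele Mir34atm1.2 Mrl) and 3 wild-type samples, all from C57BL/6 mice aged 5 weeks. The wild-type samples carry the same model nomenclature in the labels. Articular cartilage of knees and hips was pooled and digested, and the cells were grown in medium with 10% serum until confluent. They were not treated. Whether the samples of a genotype are separate mice or cultures is not given, so that a p-value reflects only how far these samples spread, which may be technical.

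The table gives TMM-normalized CPM, which are read counts divided by an adjusted library size. Whole reads were recovered from it: 989217 to 5266617 per library, and 947081 to 1772185 without Rn45s, Lars2 and Mir6236. Rn45s, a ribosomal RNA precursor, took 59.1% of the reads of wild type 1 and 2.98% to 11.4% elsewhere. Mir34a has no row, which leaves the genotype labels without a check in these values. Of 19 chondrocyte markers 16 had a row, none of them at 0, with a summed level of 2694 to 4090 CPM in wild type against 4119 to 7719 CPM in KO. Macrophage and leukocyte markers, 13 of 15 with a row, were nowhere at 0, and their summed level was 1032, 15015 and 3411 CPM in KO 1, 2 and 3 against 5159 to 6110 CPM in wild type. Proliferation markers (19 of 20 with a row) summed to 2061 to 2393 CPM in wild type against 1072 to 1760 CPM in KO. In bulk RNA, fewer cells of a type and less RNA per cell cannot be told apart.

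The primary cilium is a single antenna-like projection built on a centriole. Intraflagellar transport (IFT) trains carry cargo along it: the IFT-B complex moves outward with kinesin-2, and the IFT-A complex returns with dynein-2 and helps membrane proteins to enter. The transition zone at the base gates entry, and the BBSome carries membrane receptors out again. Hedgehog signals run through this structure: without ligand, patched keeps smoothened out of the cilium and Gli3 is cut into a repressor; with ligand, smoothened enters, Sufu releases the Gli proteins, and genes such as Gli1 are switched on. In cartilage, Indian hedgehog signalling through cilia sets the pace of chondrocyte division and hypertrophy.

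The microRNA that the knockout removes is shown first, with its seed (bases 2 to 8) in capitals, since a match to the seed in a 3′ UTR is what a direct target would carry. RefSeq (GRCm38.p6) places it at chr4:150068473-150068494 on the plus strand.
mmu-miR-34a-5p: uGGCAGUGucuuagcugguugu

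All 37 measured genes had an annotated 3′ UTR of at least 20 bases, with a median length of 1080 bases, against 1448 bases over all 9347 genes with one. A match to the seed stood in 2 of the 37 (5.41%), Sufu and Tctn1, against 19.3% of all genes. Sufu, which encodes the protein that holds Gli factors back, had 4 matches in a 3′ UTR of 2860 bases, and 16 genes of the table (0.171%) had 4 or more. Its 4 sites lie on the plus strand of mm10 at chr19:46486285-46486291, chr19:46486746-46486752, chr19:46487216-46487222 and chr19:46487434-46487440. They are printed with their surroundings, the match to the seed in capitals, because Sufu is the one of the 4 Hedgehog genes among the 37 that carries the site.
Sufu site 1: gcatgaggacgCACTGCCtggtcaacccc
Sufu site 2: agggtaaagccCACTGCCtccccatcctc
Sufu site 3: ctgcctgcctcCACTGCCtacaacgggtg
Sufu site 4: agcagacaccaCACTGCCctgggaacttt

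Tctn1, which encodes tectonic 1 of the transition zone, had 2 matches in a 3′ UTR of 3844 bases on the minus strand, at chr5:122241544-122241550 and chr5:122239262-122239268. The second is followed by an A, the base next to the seed match that often accompanies a functional site.
Tctn1 site 1: ctgctctactcCACTGCCttttaaaactc
Tctn1 site 2: aacaaaggcccCACTGCCaccctctcatc

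A match is a description, not a shown target. Neither gene was higher in KO on the log scale: the log2 fold changes, KO minus wild type in log2(CPM + 0.5), were −0.95 (SE 0.82) for Sufu and −1.47 (SE 1.75) for Tctn1, and neither passed limma (adjusted p = 0.660 and 0.760). For Tctn1 the value was 0.99 without wild type 1. Sufu was measured on 4 to 15 reads per library. It met the level of the table's filter on low values, described below, within wild type only. Among all genes of that kind, 398 of 448 had a log2 fold change below 0. A lower value was thus favoured by the filter, and the Sufu value cannot show whether its level rises without miR-34a. Over all genes with a match the median log2 fold change was 0.04, and over those without one it was 0.03.

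The comparison asked which genes differ in chondrocytes without miR-34a. None of the 37 cilium and Hedgehog genes passed limma's test at an adjusted p below 0.05 over all genes, where 0 genes passed as higher (0.0%) and 1 as lower (0.00981%). That gene is Invs, which encodes inversin of the primary cilium and which the choice of genes leaves out. At an unadjusted limma p below 0.05, 6 of the 37 were higher in KO (Gli3, Wdr35, Ift81, Wdr19, Ift80 and Ttc8, 16.2%) and 0 lower, against 4.64% and 6.4% of all genes. In 7 of 37 every KO library lay above every wild-type library, against 8.82% of all genes, and in 1 of 37 every KO library lay below, against 9.57%. By tests of the recovered reads, edgeR's quasi-likelihood test, DESeq2 and limma-voom each called 0 of the genes at an adjusted p below 0.05. Their backgrounds were 0.0%, 0.666% and 0.0% higher, and 0.0196%, 2.0% and 0.00981% lower. DESeq2 gave an adjusted p for only 4 of the 37. At an unadjusted p these tests had 6, 5 and 4 higher, against 4.57%, 4.26% and 3.66% of all genes, and 1, 0 and 0 lower, against 5.82%, 5.01% and 7.15%.

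Several of these genes were measured on few reads. The median cilium or Hedgehog gene had 20 to 24 reads in a wild-type library, 51 in KO 1, and 29 and 25 in KO 2 and KO 3. Of the 37, 3, 4 and 2 had no read in wild type 1, 2 and 3, and 0, 0 and 1 in KO 1, 2 and 3. The table had been filtered on low values: the runner-up among the 6 values of a row never lay below 7.35 CPM. Of the 37, 27 met that level within either genotype alone, 7 within KO only, 2 within wild type only, and 1 within neither alone. The last was Dync2h1, which reached it in wild type 3 (9.38 CPM) and KO 1 (27.1 CPM). The 7 were Wdr35, Ift81, Wdr19, Ttc8, Ift122, Ift57 and Ttc21b. They are in the table through their KO values, and 808 of 852 genes of this kind overall had a log2 fold change above 0. The 2 that passed through wild type were Sufu and Cep164, and 398 of 448 genes of that kind overall had a log2 fold change below 0. Of the 6 genes named above, Gli3 and Ift80 did not depend on this. Among the 27 genes that met the level within either genotype, every KO library lay above every wild-type library in 2. Over all such genes this held for 684 of 8714. Among the 7 that passed through KO it held for 5, and over all genes of that kind for 215 of 852.

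**Figure D1:**
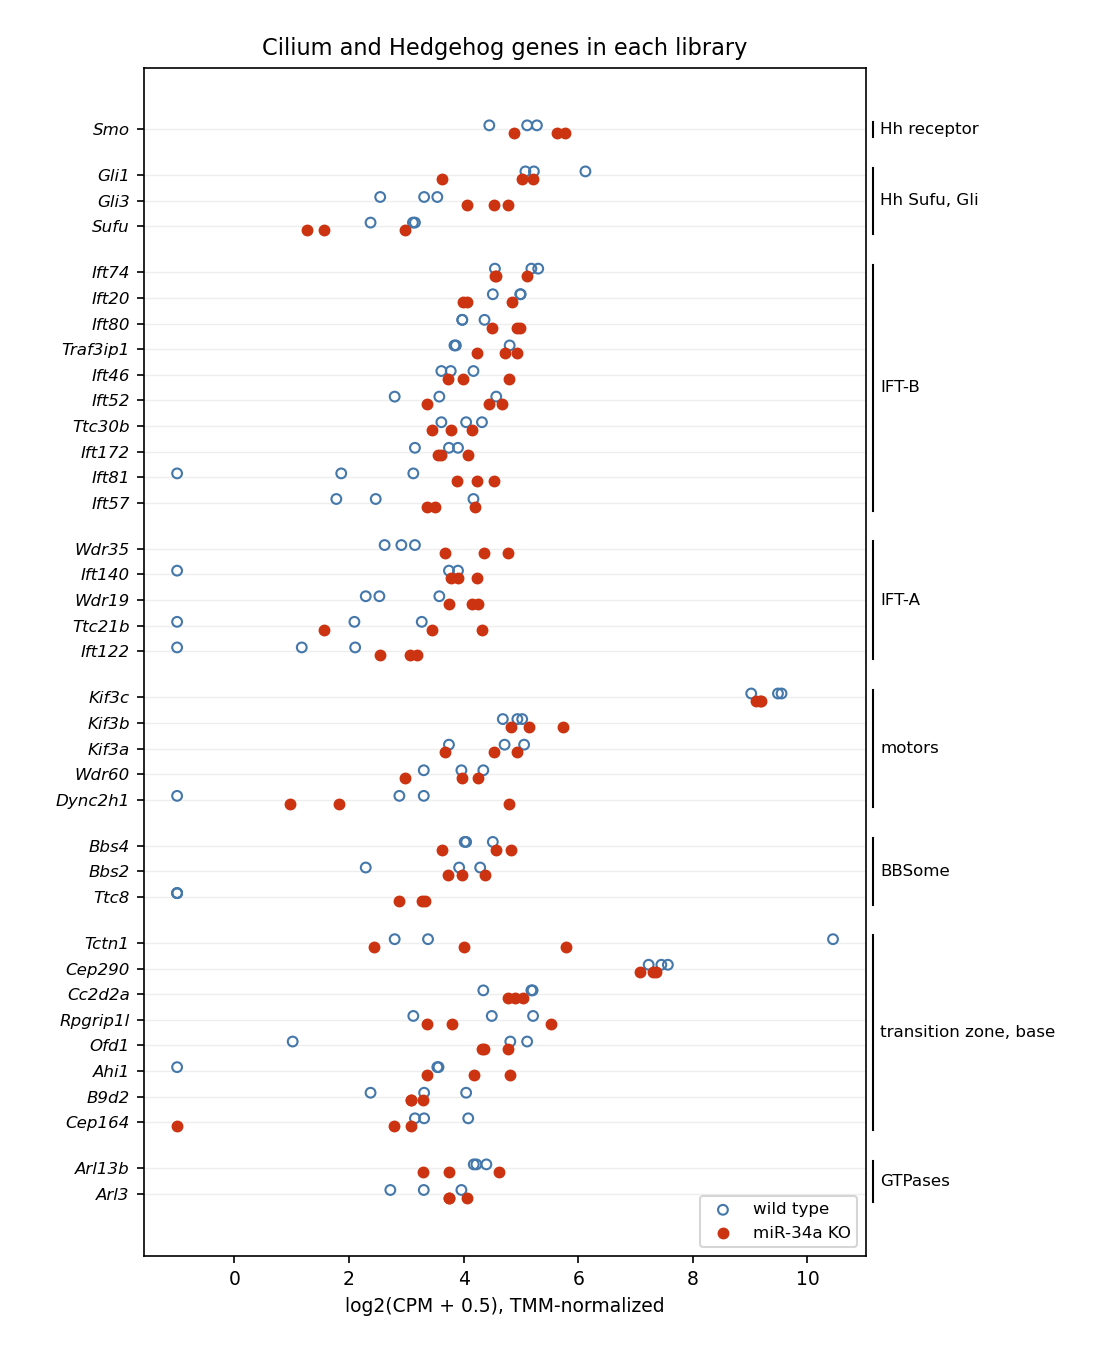
Level of each of the 37 genes, by role, as log2(TMM-normalized CPM + 0.5). Open circles are the 3 wild-type libraries and filled circles the 3 KO libraries; points at −1 have no read. Kif3c and Cep290 lie above the rest, and wild type 1 stands alone for Tctn1 at 1395 CPM.

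Of the Hedgehog genes, 4 were measured. Gli3, the factor that forms the main Gli repressor, had higher values in KO. Gli1, a Gli activator and itself a target of the pathway, and Sufu had lower mean values, and Smo, which encodes smoothened, had a higher mean value. None of the 4 passed limma after adjustment over all genes.

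Gli3 (GeneID 14634) lies on chromosome 13 at 15463235 to 15730026 (mm10). It had 9.42, 5.33 and 11.1 CPM in wild type 1, 2 and 3, and 26.7, 16.2 and 22.6 CPM in KO 1, 2 and 3. The groups did not overlap: the lowest KO library stood above the highest wild-type library. Its mean was 8.63 ± 2.98 CPM (SD, n = 3) in wild type against 21.8 ± 5.32 CPM (SD, n = 3) in KO. Limma put the log2 fold change at 1.32 (SE 0.42, adjusted p = 0.315), and it was 1.03 to 1.52 when any 1 library was left out. Of its exon bases, 188 overlap the opposite-strand gene Gm6556. The library kit keeps strand, but no source used here gives the strand setting of the counts, so that reads of overlapping genes on opposite strands cannot be told apart.

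Gli1 (GeneID 14632, chromosome 10 at 127329882 to 127341974) had 33.3, 69.3 and 36.9 CPM in wild type 1, 2 and 3. In KO 1, 2 and 3 it had 11.8, 36.7 and 31.8 CPM. KO 1 was low and wild type 2 high, and the other 4 libraries lay between 31.8 and 36.9 CPM, with the genotypes overlapping. Its log2 difference of −0.86 (SE 0.45) did not pass limma (adjusted p = 0.506). This value was −0.36 without KO 1 and −0.53 without wild type 2. Gli1 shares 62 exon bases with Arhgap9 and 265 with Gm47200, both on the opposite strand.

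Smo (GeneID 319757, chromosome 6 at 29735503 to 29761365) had 38.3, 21.3 and 34.0 CPM in the wild-type libraries and 54.2, 28.9 and 48.9 CPM in the KO libraries. KO 1 and KO 3 lay above every wild-type library, and KO 2 lay within their range. In log2 Smo differed by 0.48 (SE 0.33, limma adjusted p = 0.589), and by 0.23 without wild type 2. Sufu (GeneID 24069, chromosome 19 at 46396896 to 46488804), the carrier of 4 seed matches shown above, had 8.17, 8.38 and 4.69 CPM in wild type against 1.91, 7.35 and 2.45 CPM in KO. KO 2 was as high as wild type while KO 1 and KO 3 were lower. These values rest on 8 to 13 reads in a wild-type library and on 5, 15 and 4 reads in KO 1, 2 and 3.

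**Figure D2:**
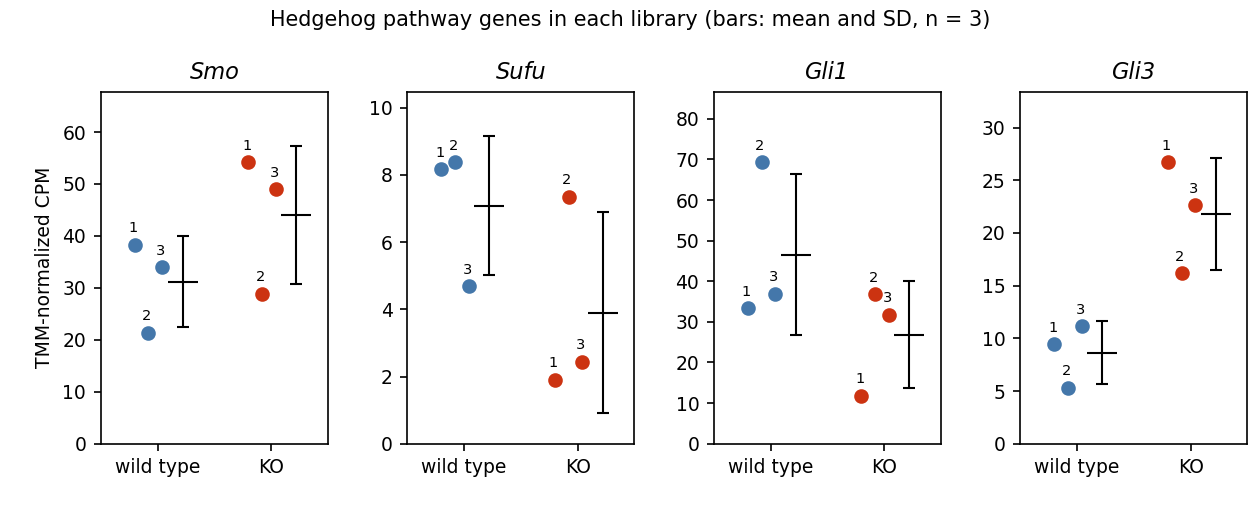
The 4 measured Hedgehog genes, in TMM-normalized CPM, with 1 point per library labelled by its replicate number, and the mean and SD of each genotype (n = 3). Gli3 is the gene whose groups do not overlap, from 16.2 CPM up in KO and from 11.1 CPM down in wild type.

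The marker sums moved with these genes in part. KO 1, with the lowest Gli1 and the highest Smo and Gli3, also had the highest sum of chondrocyte markers (7719 CPM) and the lowest sum of macrophage and leukocyte markers (1032 CPM). KO 2, with the lowest Smo and Gli3 among the KO libraries, had the lowest sum of chondrocyte markers among them (4119 CPM), the highest sum of macrophage and leukocyte markers (15015 CPM) and the lowest sum of proliferation markers (1072 CPM). Mural cell markers (7 of 9 with a row) summed to 572 to 732 CPM in wild type and, without overlap, to 274 to 484 CPM in KO. Osteoblast markers (7 of 9 with a row) summed to 6720, 19947 and 7000 CPM in KO 1, 2 and 3, against 5344 to 7382 CPM in wild type. Only KO 2 stood apart from the wild-type sums, but Spp1 made up a large part of the sum in each library. Spp1 had 6321, 4750 and 4689 CPM in wild type against 2806, 17015 and 3093 CPM in KO. Ibsp had 858, 1659 and 526 CPM in wild type against 3620, 2628 and 3614 CPM in KO, with no overlap. In 3 of the 7 osteoblast genes every KO library lay above every wild-type library, against 8.82% of all genes. The sums therefore do not show how the genes other than Spp1 differed. Of the 7 osteoblast genes all had a log2 fold change above 0, 2 of them at an unadjusted limma p below 0.05. Of the 7 mural genes 5 were lower at that level and 1 higher. Among the 16 chondrocyte genes 7 were higher at that level and 0 lower, and among the 19 proliferation genes 0 were higher and 9 lower. For the 13 macrophage and leukocyte genes these counts were 0 higher and 1 lower. Over all genes 4.64% were higher and 6.4% lower at that level. The part of these cell mixtures in the Hedgehog values was not tested.

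Other genes of the Hedgehog pathway came from a list set by name. Of 46 listed co-receptors, release factors, kinases and ligases, 31 had a row. Of these 14 had higher and 17 lower log2 fold changes, with a median of −0.04. Limma gave 3 as higher and 2 as lower at an unadjusted p below 0.05, against 4.64% and 6.4% of all genes. None of the 31 passed after adjustment. Gas1, which encodes a membrane co-receptor that binds Hedgehog ligands, had 202, 80.8 and 147 CPM in wild type against 348, 199.9 and 287 CPM in KO, a difference of 1.02 in log2 (SE 0.34, limma adjusted p = 0.329). KO 2 lay just under wild type 1, so that the groups overlapped. Inpp5e, the phosphoinositide phosphatase of the ciliary membrane, had 904, 1107 and 1156 CPM in wild type against 693, 634 and 851 CPM in KO. Its groups did not overlap (−0.54, SE 0.20, limma adjusted p = 0.368), and 874 of its exon bases overlap genes on the opposite strand, as do 589 of Gas1.

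Of 20 listed Hedgehog target genes, 10 had a row, with 7 higher, 3 lower and a median log2 fold change of 0.32. At an unadjusted limma p below 0.05, 1 was higher (Pth1r) and 1 lower (Sfrp1), against 4.64% and 6.4% of all genes. Sfrp1, which encodes a secreted Wnt inhibitor, had 83.6, 54.9 and 107 CPM in wild type against 8.01, 31.4 and 16.5 CPM in KO. Every KO library lay below every wild-type library. In log2 the difference was −2.25 (SE 0.46, limma adjusted p = 0.238). DESeq2 called it (adjusted p = 0.00287), and so did limma without KO 2 (adjusted p = 0.0347). Pth1r, the receptor gene of the loop between Indian hedgehog and parathyroid hormone-related protein, had 18.8, 34.3 and 28.7 CPM in wild type against 48.9, 41.6 and 49.5 CPM in KO, with no overlap (0.80, SE 0.28, limma adjusted p = 0.348). Opposite-strand genes overlap 95 of its exon bases and 1100 of those of Ccnd1. The cyclin D1 gene Ccnd1 had 150, 209 and 156 CPM in wild type. In KO it had 267, 128 and 304 CPM, on both sides of the wild-type range (0.36, SE 0.32).

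Among IFT-B subunits, 10 were measured, with 7 higher, 3 lower and a median log2 fold change of 0.39. Ift81, whose protein pairs with that of Ift74 to bind tubulin, had 3.14, 0 and 8.21 CPM in wild type 1, 2 and 3, and 18.3, 14.2 and 22.6 CPM in KO 1, 2 and 3. The groups did not overlap. In reads these values were 5, 0 and 14 in wild type and 48, 29 and 37 in KO. The fitted difference of Ift81 was 2.89 in log2 (SE 0.995, limma adjusted p = 0.338), and 1.72 without wild type 2, the library with no read. Its partner Ift74 had 39.0, 35.8 and 22.9 CPM in wild type against 34.0, 23.03 and 23.2 CPM in KO, with the KO libraries inside the wild-type range (−0.27, SE 0.31, limma adjusted p = 0.751).

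Ift80, a subunit whose loss impairs skeletal growth, had 20.1, 15.2 and 15.2 CPM in wild type against 31.3, 29.9 and 22.0 CPM in KO. All 3 KO libraries lay above the wild-type libraries, on 20 to 32 reads against 36 to 82. Limma gave a log2 fold change of 0.70 (SE 0.30, adjusted p = 0.438), which stayed between 0.60 and 0.85 when any 1 library was left out. Ift20, which also works at the Golgi in sorting cargo to the cilium, had 31.4, 31.2 and 22.3 CPM in wild type against 28.2, 16.2 and 15.3 CPM in KO (−0.54, SE 0.33, limma adjusted p = 0.563). KO 1 stood within the wild-type range. The other 6 subunits (Ift172, Ift46, Ift52, Ift57, Traf3ip1 and Ttc30b) had means of 8.49 to 18.4 CPM in wild type against 12.8 to 24.8 CPM in KO, with log2 fold changes of −0.20 to 0.88.

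All 5 measured IFT-A subunits had higher mean log values in KO, with log2 fold changes of 1.25 to 2.17 and a median of 1.65. Wdr35, Wdr19 and Ift122 had groups that did not overlap, and Ift140 and Ttc21b did overlap. Of the 5, only Ift140 met the filter level within wild type, so that the others are in the table through their KO values. The fold change of Ift140 rested largely on wild type 2, where it had no read. No IFT-A gene passed limma after adjustment.

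Wdr35, which encodes an IFT-A subunit close to coat proteins in structure (GeneID 74682, chromosome 12 at 8973892 to 9028847), had 5.65, 8.38 and 7.04 CPM in wild type against 26.7, 20.1 and 12.2 CPM in KO. Its mean was 7.02 ± 1.36 CPM (SD, n = 3) in wild type against 19.7 ± 7.25 CPM (SD, n = 3) in KO. On the log scale the difference was 1.37 (SE 0.44, limma adjusted p = 0.322), and 1.12 to 1.67 when any 1 library was left out. Wdr19, another IFT-A core subunit, had 4.40, 11.4 and 5.28 CPM in wild type against 17.2, 18.6 and 12.8 CPM in KO (1.25, SE 0.49, limma adjusted p = 0.402). Wild type 2 came close to KO 3 without reaching it.

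Ift122, whose subunit joins the core of IFT-A, was near the limit of detection in wild type, with 0, 3.81 and 1.76 CPM from 0, 5 and 3 reads. In KO it had 5.34, 7.84 and 8.56 CPM from 14, 16 and 14 reads. Fitted at 2.17 in log2 (SE 1.21, limma adjusted p = 0.526), the difference was 1.29 without wild type 1. Ift140 and Ttc21b ranged from 0 to 19.5 CPM over the libraries, with log2 fold changes of 1.65 to 1.76, and each had 1 wild-type library with no read. Ift140 had 14.4, 0 and 12.9 CPM in wild type against 14.5, 13.2 and 18.4 CPM in KO. Wild type 1 lay within the KO range and wild type 3 just below it.

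**Figure D3:**
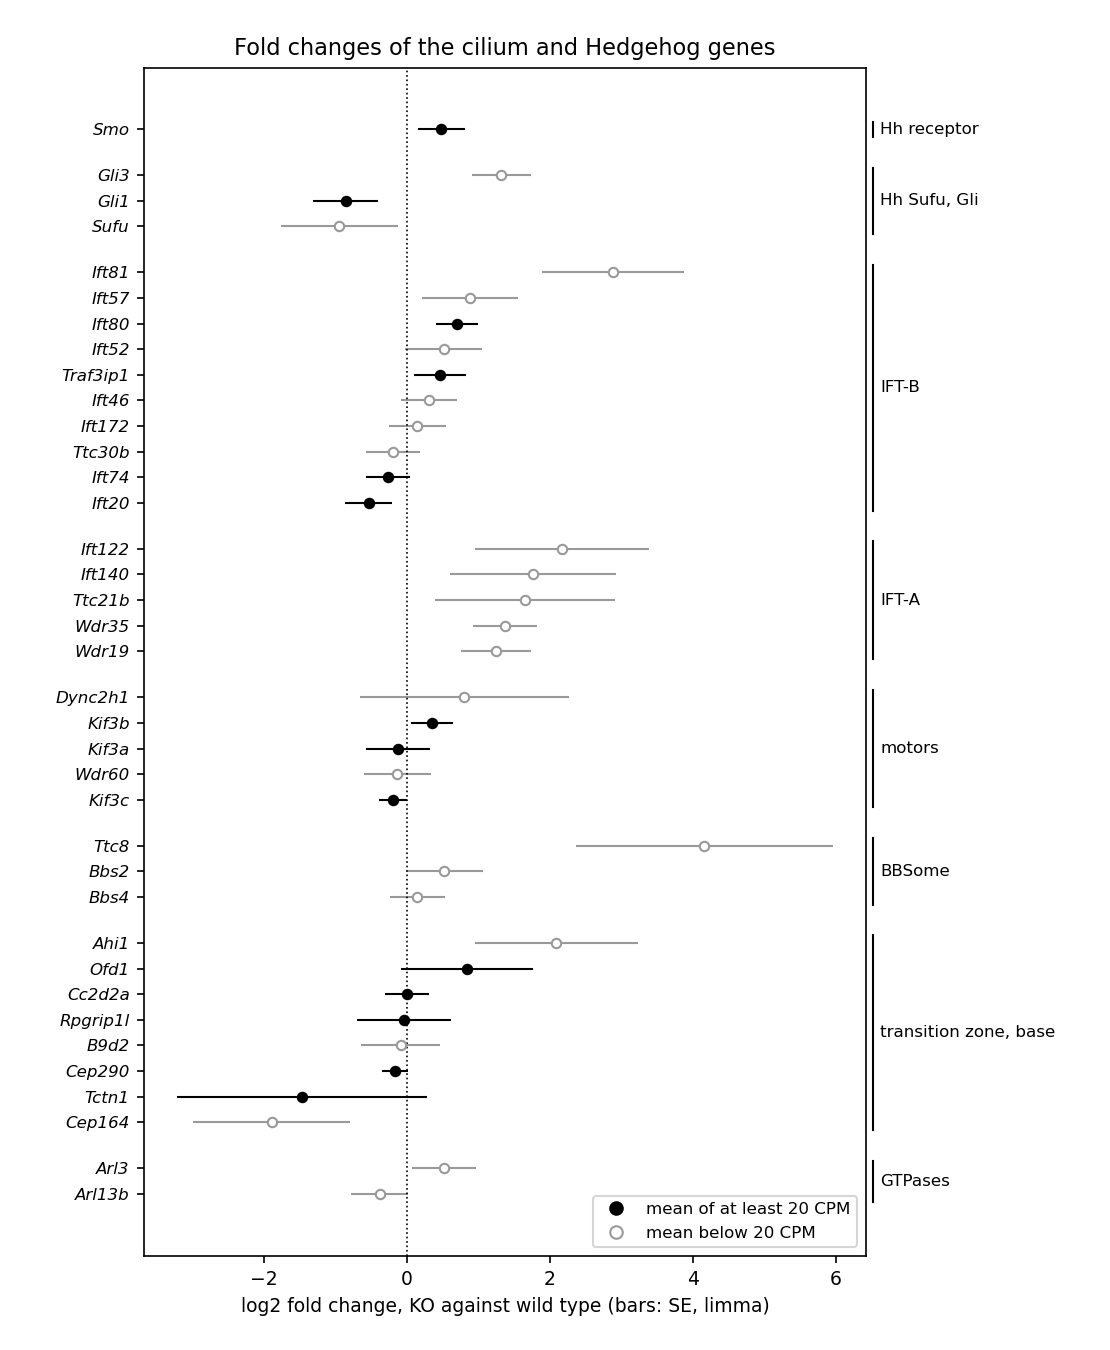
Log2 fold change of the 37 genes, KO minus wild type in log2(CPM + 0.5), by role; bars are the SE from limma. Filled points have a mean of at least 20 CPM and open points less. The 5 IFT-A genes lie between 1.25 and 2.17, and the genes with the widest bars are Ttc8, Tctn1 and Dync2h1.

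Motor genes of the cilium were spread on both sides of 0, with 2 of 5 higher and a median log2 fold change of −0.13. Kif3c, which encodes a kinesin-2 subunit, had the highest level per length of the 37 genes, 83.2 CPM per kb of exon. It had 518, 748 and 716 CPM in wild type against 586, 579 and 547 CPM in KO, which lay within the wild-type range (−0.19, SE 0.20, limma adjusted p = 0.713). Of its 7406 exon bases, 2617 overlap the opposite-strand gene 1110002L01Rik, which had 128 ± 32.7 CPM in wild type against 114 ± 31.4 CPM in KO (SD, n = 3), so its level is uncertain. The other 4 (Dync2h1, Kif3a, Kif3b and Wdr60) had 0 to 52.9 CPM over the libraries and log2 fold changes of −0.13 to 0.80. The 0.80 was that of Dync2h1, with 0, 6.86 and 9.38 CPM in wild type against 27.1, 1.47 and 3.06 CPM in KO. Of its KO libraries, only KO 1 lay above the wild-type range.

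BBSome subunits were represented by 3 genes, all with higher mean log values in KO. Ttc8, which encodes a subunit mutated in Bardet-Biedl syndrome (GeneID 76260, chromosome 12 at 98920574 to 98983238), had no read in the 3 wild-type libraries. In KO 1, 2 and 3 it had 9.54, 6.86 and 9.18 CPM from 25, 14 and 15 reads. Against a floor of 3 reads over the 3 wild-type libraries together, the pooled KO level of 8.58 CPM was at least 13.2-fold higher; the floor covers counting error only. Limma gave an adjusted p of 0.442, and limma without an intensity trend called it (adjusted p = 0.00202). Having no reads in wild type, it could enter the table only through KO. Bbs4, whose product links the BBSome to centriolar satellites, had 15.7, 16.0 and 22.3 CPM in wild type against 27.9, 11.8 and 23.2 CPM in KO, on both sides of wild type (0.15, SE 0.39). Bbs2 had means of 12.7 CPM in wild type against 16.1 CPM in KO.

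At the transition zone and base of the cilium, 2 of 8 genes were higher and 6 lower, with a median log2 fold change of −0.07. Cep164, a distal appendage protein gene needed to dock the centriole at the membrane, was the gene whose KO libraries all lay below wild type, and it is in the table through its wild-type values. It had 9.42, 8.38 and 16.4 CPM in wild type against 8.01, 6.37 and 0 CPM in KO. KO 1 lay close under wild type 2, and KO 3 had no read. In log2 Cep164 differed by −1.89 (SE 1.10, limma adjusted p = 0.540), and −0.58 without KO 3. Ahi1, which encodes jouberin of the transition zone, had 11.3, 0 and 11.1 CPM in wild type against 27.5, 9.80 and 17.7 CPM in KO. The groups overlapped, and the fitted difference of 2.09 in log2 (SE 1.14, limma adjusted p = 0.514) was 0.57 without wild type 2, where it had no read.

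Cep290, which encodes a large tether between the microtubules and the ciliary membrane, was the most evenly measured of these genes. It had 149.5, 174 and 189 CPM in wild type against 135, 157 and 163 CPM in KO, from 229 to 354 reads per library, with overlapping groups (−0.17, SE 0.18, limma adjusted p = 0.737). It shares 881 exon bases with 4930430F08Rik on the opposite strand. Tctn1 had 1395, 9.90 and 6.45 CPM in wild type 1, 2 and 3, and 15.6, 54.4 and 4.89 CPM in KO 1, 2 and 3. Wild type 1 stood apart from the other 5 libraries, and it is also the library with 59.1% of reads on Rn45s; their link was not tested. Of its 8295 exon bases 2113 overlap opposite-strand genes, 1574 of them Hvcn1, which had 255 to 306 CPM in wild type. Without wild type 1, the log2 fold change turned from −1.47 to 0.99. The other 4 genes of the group (B9d2, Cc2d2a, Ofd1 and Rpgrip1l) had log2 fold changes of −0.09 to 0.84. The 0.84 was that of Ofd1, with 27.6, 1.52 and 34.0 CPM in wild type against 26.7, 20.1 and 19.6 CPM in KO. It rested on the low value of wild type 2. Of the ciliary GTPases, Arl13b, which marks the ciliary membrane, had 17.6, 20.6 and 18.2 CPM in wild type against 24.0, 9.31 and 12.8 CPM in KO, on both sides of wild type (−0.38, SE 0.40). Arl3, which releases lipid-modified cargo inside the cilium, had a log2 fold change of 0.52.

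The median log2 fold change was 0.35 over the 37 genes and 0.02 over all genes, and it depended on the level. For the 14 genes with a mean of at least 20 CPM it was −0.088, with 5 higher and 9 lower, against −0.03 over 6115 genes of that level. For the 23 with a lower mean it was 0.52, with 17 higher and 6 lower, against 0.14 over 4074 genes. Among the 27 genes that met the filter level within either genotype, 14 were higher and 13 lower, with a median of 0.15, against −0.01 over 8714 such genes. For the 29 genes with no opposite-strand exon overlap the median was 0.46 (all such genes 0.07), and for the 8 with overlap −0.01 (all such genes −0.07). These are descriptions with no test over the list.

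**Figure D4:**
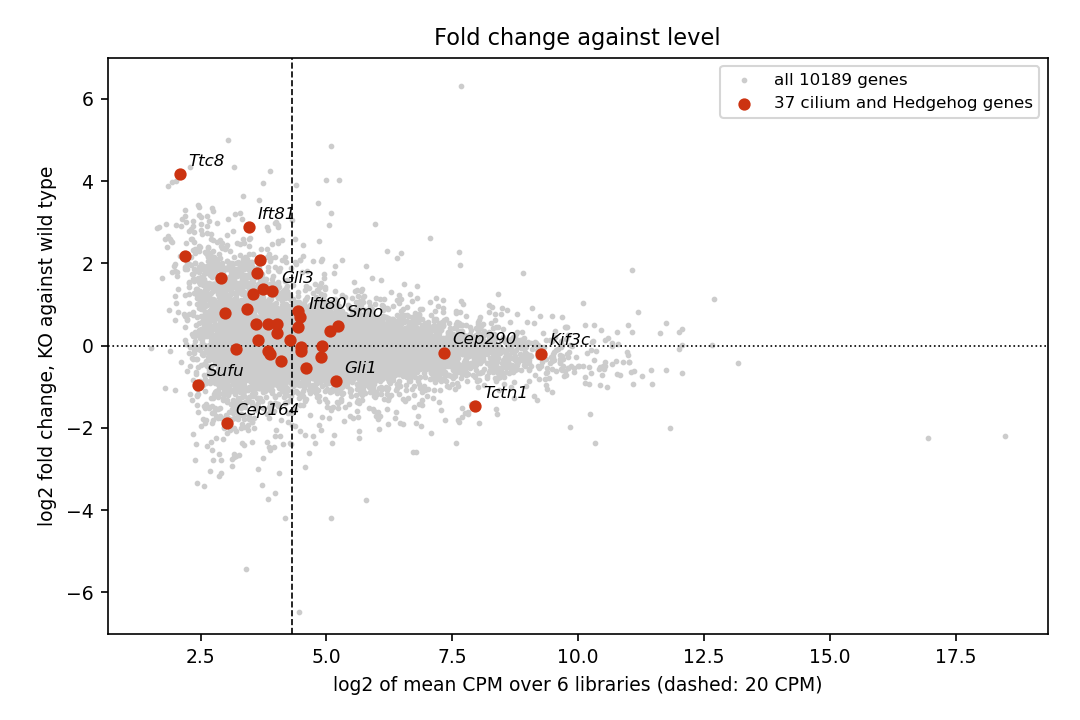
Log2 fold change, KO against wild type, against the log2 of the mean CPM over the 6 libraries, for all 10189 genes in grey and the 37 cilium and Hedgehog genes in red; the dashed line marks 20 CPM. To its left the red points lie mostly above 0 (17 of 23), and to its right they lie on both sides (5 of 14 above 0).

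By library, the median deviation of the 23 genes of lower mean from their own mean over the 6 libraries was −0.19, 0.15 and −0.28 in wild type 1, 2 and 3 and 0.70, 0.25 and 0.15 in KO 1, 2 and 3. KO 1 was highest, and wild type 2 stood level with KO 3. For all 4074 genes below 20 CPM it was 0.00 to 0.06 in wild type and 0.14 to 0.19 in KO, and 2364 of these genes had a log2 fold change above 0 and 1710 below. For the 14 genes of higher mean it was −0.20 to 0.21 in wild type and −0.03 to 0.07 in KO, with the KO libraries inside the wild-type range. KO 1 was also the library with the most reads outside Rn45s, Lars2 and Mir6236 (1772185). Without KO 1, 1 of the 37 genes (Ift81) was higher at an unadjusted limma p below 0.05 and 1 (Ift20) lower. The share of all genes at that level was not counted in this refit, so the change is not shown to be particular to the 37. The part of depth in these values was not tested.

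**Figure D5:**
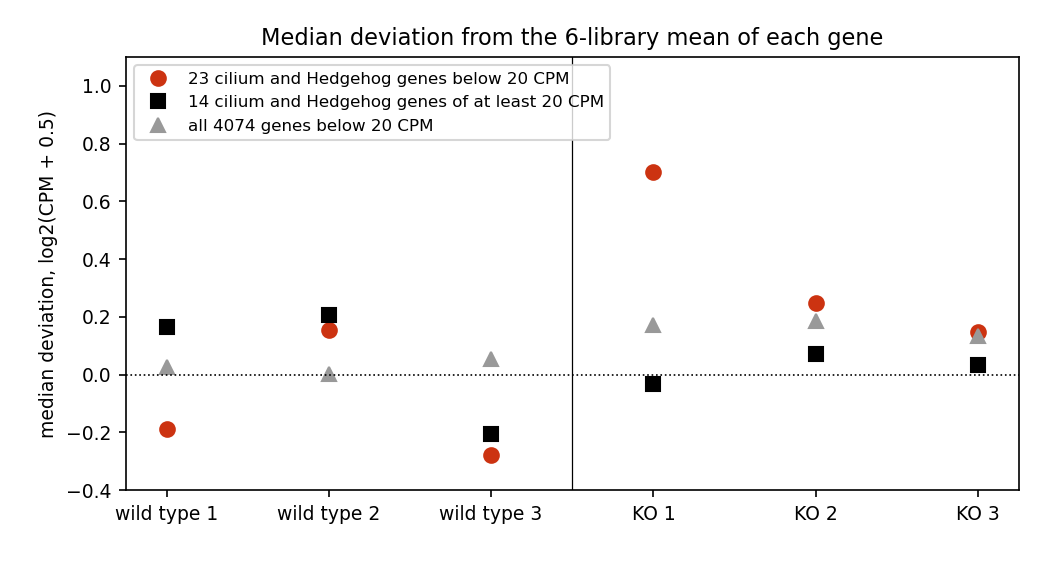
Median deviation per library, in log2(CPM + 0.5), of each gene from its mean over the 6 libraries: 23 cilium and Hedgehog genes below 20 CPM (circles), 14 of at least 20 CPM (squares) and all 4074 genes below 20 CPM (triangles). KO 1 stands out at 0.70 for the circles and lies at −0.03 for the squares.

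Other genes of the primary cilium again came from a list set by name. Of 89 listed, 55 had a row, with 36 higher, 19 lower and a median log2 fold change of 0.10. At an unadjusted limma p below 0.05, 2 were higher (Fbf1 and Dzip1) and 0 lower, against 4.64% and 6.4% of all genes. None of the 55 passed after adjustment. Fbf1, a distal appendage gene, had 6.28, 3.81 and 5.28 CPM in wild type against 11.1, 15.7 and 21.4 CPM in KO, with no overlap (1.53, SE 0.50, limma adjusted p = 0.323). Dzip1, a gene of the ciliary base that acts in Hedgehog signalling, had 10.7, 5.33 and 4.10 CPM in wild type against 29.0, 8.82 and 18.96 CPM in KO, with KO 2 within the wild-type range (1.39, SE 0.57, limma adjusted p = 0.422). Of its exon bases, 2999 overlap genes on the opposite strand. The gene 2410089E03Rik had 0, 2.29 and 3.52 CPM in wild type against 11.4, 3.92 and 12.2 CPM in KO, with KO 2 just above wild type 3 (2.30, SE 1.2, limma adjusted p = 0.496). Without wild type 1, where it had no read, the difference was 1.39. Fbf1, Dzip1 and 2410089E03Rik each met the filter level of 7.35 CPM within KO only, and are in the table through their KO values. Among all genes of that kind, 808 of 852 had a log2 fold change above 0, so that higher values were favoured by the filter.

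Genes of motile cilia, which chondrocytes do not build, were examined as markers of other cells. Of 25 listed, 7 had a row, with summed levels of 680 to 984 CPM in wild type against 469 to 636 CPM in KO. Foxj1, the defining regulator of multiciliated cells, had no row. Of the 7, 1 was higher and 6 lower, 3 of them at an unadjusted limma p below 0.05 (Ccdc39, Cfap43 and Dnah11). At that level 6.4% of all genes were lower.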

How the data were processed

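The authors deposited a signal for every gene in each library: TMM-normalized CPM of filtered genes, as the table is named. HISAT2 2.1.0, StringTie 1.3.5, cutadapt 1.18, bcl2fastq, edgeR and build mm10 stand in the submitters' processing notes with no role. No source used here gives the annotation, the strand setting or the filter rule. All values (100%) were whole multiples of 1 step per library (0.382 to 0.762 CPM, tolerance 0.001 reads), so reads were recovered. Of 6 columns, 5 matched a sample title and the KO 3 column has 1 character unlike its title.

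Log2(CPM + 0.5) of the 3 KO and 3 wild-type libraries was tested in R 4.3.3 by limma 3.58.1, fitting a trend with intensity. Tests were two-sided, and p-values were adjusted by Benjamini-Hochberg for 10189 genes. The fixed design assumed plain CPM. The procedure was tested on simulated counts. Recovered reads were tested with edgeR 4.0.16 (quasi-likelihood), DESeq2 1.42.0 and limma-voom. Other alternatives were pseudocounts, a filter, scalings, variance models, array weights, a replicate block and libraries left out. Symbols matched GENCODE M21 for 96.3% of genes and for all 37 cilium and Hedgehog genes. Seed matches were sought in the longest annotated 3′ UTR.

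The genes and lists were chosen with earlier results of these data known. Named with values in each library were the Hedgehog genes, the 8 genes of smallest limma p per direction, the gene of highest mean CPM per cilium group, and up to 3 genes per other list, of which 1 is not reported here. The rest are given by ranges. Python 3.11.15, numpy 2.4.6, pandas 2.3.3 and matplotlib 3.10.9 served for other steps.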

Additional observations from a re-analysis of the deposited data

How the results depend on the processing

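Of 20 alternatives, limma without a trend was the one that called a cilium or Hedgehog gene after adjustment: 1 gene, Ttc8 (log2 fold change 4.16), whose wild-type values are all 0. Among all genes, the counts called higher were 7 without a trend, 1 with robust empirical Bayes, 27 with DESeq2, and 0 to 7 when 1 library was left out. Those called lower were 2 with a pseudocount of 1, 3 without a trend, 3 with robust empirical Bayes, 0 with the replicate block, 2 without wild type 1 and KO 2, 2 with edgeR, 81 with DESeq2, and 0 to 25 when 1 library was left out. The count of cilium and Hedgehog genes higher at an unadjusted p below 0.05, 6 as reported, was 0 when limma was refitted on genes of at least 20 CPM, where Ift80 no longer passed, and 1 to 6 when 1 library was left out, not always from the same genes; it was 1 without KO 1. The count lower became 1 with the replicate block (Gli1), without wild type 1 and KO 2 (Gli1) and with edgeR (Tctn1), and was 0 to 1 when 1 library was left out. Among the alternatives, shares of all genes at an unadjusted p were counted only for edgeR, DESeq2 and limma-voom. The other counts therefore have no background beside them. Gli3 kept an unadjusted p below 0.05 under 18 of 19 alternatives in which it was tested, Wdr35 and Ift81 under 17, Wdr19 under 14, Ttc8 under 10 and Ift80 under 9 of 20. The median of the cilium and Hedgehog genes was −0.088 with the filter at 20 CPM, the one alternative that turned it, and 0.22 to 0.42 when 1 library was left out. Direction under each alternative was followed for the 19 cilium and Hedgehog genes named with values in each library. Among these it turned for Tctn1 without wild type 1 (0.99) and when KO 2 was left out with it (0.13), and for Bbs4 without KO 1 (−0.10). For the other 18, given by ranges, turns of direction were not counted. When 1 library was left out the ranges were −2.84 to 0.99 for Tctn1 and −0.10 to 0.51 for Bbs4. Sfrp1 was called with DESeq2 (−2.13) and without KO 2 (−2.72). Same-numbered libraries did not deviate together (correlations 0.02, 0.07 and −0.06 over genes), so the numbers do not pair them; with the replicate block 5 cilium and Hedgehog genes were higher at an unadjusted p below 0.05, 4 of the 6 reported (Gli3, Ift81, Wdr19 and Wdr35) and Ahi1. One read is worth 0.382 to 0.762 CPM, which limits genes below 10 CPM.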

Other observations

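Promoters of the RefSeq set (GRCm38.p6, 250 bases before to 50 after each start) were searched on both strands for the Gli-binding motif GACCACCCA and for GTTNCCATG, a half-site with the centre of the X-box to which RFX factors bind in front of ciliary genes. Of the 70 symbols, 60 had a promoter in that set, and 32 of the 37 measured genes did, Gli1 not among them. The Gli motif stood in 0 of the 60 and in 0.253% of all 32851 promoters. The X-box stretch stood in 3 of the 60 (Ttc30a2, Tctn2 and Tmem216, none of them with a row in the table) and in 1.93% of all promoters. The absence of these letters from a window says nothing about binding of the factor.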
